A study of Mus musculus with 12 samples.

Results

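Genes that detect DNA damage or prolonged mitosis, or pass that signal on, were followed in the dorsal telencephalon (pallium) of mouse embryos: Atm, Atr, Parp1, Chek1, Chek2, Brca1, Brca2, Trp53bp1 and Usp28. They were chosen by symbol, as the damage sensors, checkpoint kinases, homologous recombination genes and the Usp28-Trp53bp1 arm of p53 signalling, and are 9 of the 54735 gene symbols listed for each embryo. Of the 9, 4 encode kinases (Atm, Atr, Chek1 and Chek2), and the other members are a polymerase, recombination factors, a chromatin adaptor and a deubiquitinase. All 9 had a mean of at least 1 TPM (transcript abundance per gene length, as a share of all transcripts) over the 12 embryos and were tested.

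RNA was sequenced from 12 C57/Bl6 embryos at E13.5, during cortical neurogenesis, with 4 in each of 3 genotypes. Controls were Rnu11wt/flx::Trp53wt/wt::Emx1-Cre+, the cKO group was Rnu11flx/flx::Trp53wt/wt::Emx1-Cre+ and the dKO group was Rnu11flx/flx::Trp53flx/flx::Emx1-Cre+. Rnu11 is the gene of the U11 snRNA, with which the minor spliceosome recognises its rare class of introns, and Trp53 encodes p53. All 12 embryos carried Emx1-Cre, so each control had lost 1 floxed Rnu11 allele wherever Cre acted. Emx1-Cre acts in pallial progenitors and the cells born from them, so vessel cells, microglia and ventrally born neurons in the same tissue piece keep their floxed alleles.

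Atm is a kinase that responds to double-strand breaks, and Atr is a related kinase that responds to single-stranded DNA at stalled replication forks. They phosphorylate the checkpoint kinases Chek2 and Chek1, which hold back the cell cycle, and both branches reach p53. Brca1 and Brca2 repair breaks by homologous recombination in dividing cells, Parp1 marks breaks with poly(ADP-ribose), and Trp53bp1 with Usp28 stabilises p53 after centrosome loss or a long mitosis. Embryonic cortical progenitors divide fast and are known to be sensitive to loss of genes in these pathways.

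The genotype labels were checked on the deleted genes. Rnu11 after scaling stood at 18.2% of the control mean in cKO and 26.1% in dKO, and Trp53 stood at 32.9% of control in dKO. Each of these 3 differences had p = 0.0286 by two-sided exact permutation, the floor for 4 embryos against 4, or 0.0343 adjusted (Benjamini-Hochberg) across 6 tests. Trp53 was not separated between cKO and control (exact permutation p = 0.971). Its control mean rests in part on control embryo 1, at 6.45 TPM after scaling, where the other controls stood at 2.80 to 3.56. The dKO embryos stood at 1.02 to 1.56. Between the mutants, Rnu11 was higher in dKO (143% of cKO, exact permutation p = 0.0286, adjusted 0.0343), but not with the values as deposited (p = 0.371). The pallium markers Emx1, Emx2 and Lhx2 were above 0 in every library. Emx1 (-0.51, limma adjusted p = 0.0312) and Lhx2 (-0.51, adjusted p = 0.0302) were called lower in cKO against control, and Emx1 (-0.46, adjusted p = 0.0441) in dKO against control, on the scaled values described next, though none of these was called as deposited. Their part in the results was not tested. Of 8 markers of the ventral telencephalon, Nkx2-1 and Gsx2 were at 0 in some libraries and the others were above 0 in every library. The summed level of the 8 after scaling was 1.84 to 2.80 TPM in control, 2.62 to 4.44 in cKO and 1.87 to 3.92 in dKO. The part of such cells in the results was not tested. As deposited, the median of the 11764 tested genes was shifted by 0.25 on the log2(TPM + 1) scale in cKO against control, by -0.01 in dKO against control and by -0.26 in dKO against cKO. Each library was therefore divided by the median ratio of its genes to the average library (factors from 0.874 to 1.31), and "scaled TPM" below means the deposited TPM after this division. Sequencing depth is unknown, as TPM does not keep it.

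**Figure D1:**
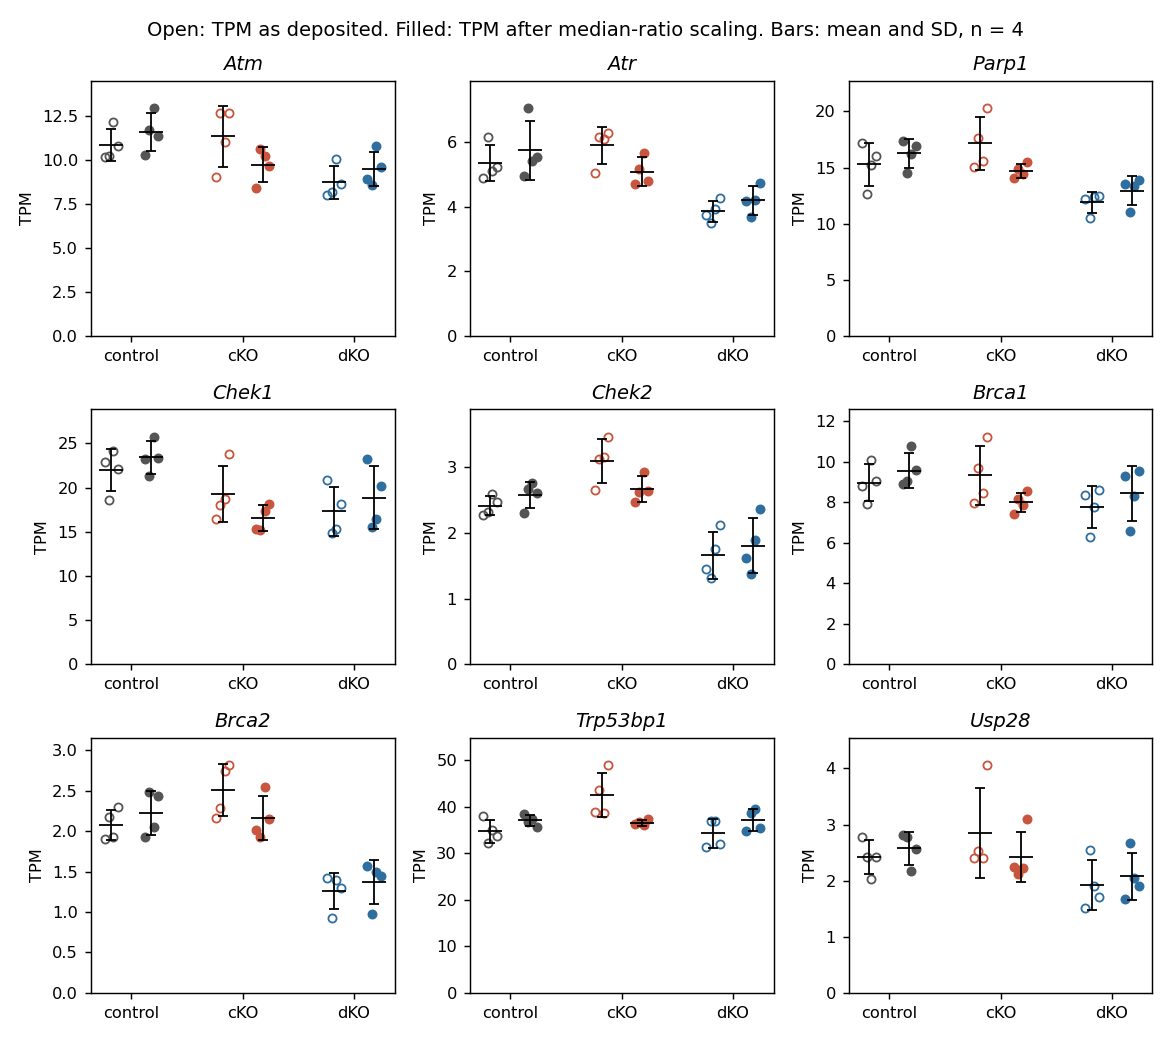
TPM (y axis) of each of the 9 genes in every embryo, by genotype, as deposited (open points) and after median-ratio scaling (filled points), with the mean and SD of 4 embryos as bars. After scaling, the 4 dKO embryos lie lowest for Brca2 (0.975 to 1.57), whereas for Trp53bp1 all 12 embryos lie between 34.8 and 39.5.

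The levels of the 9 genes in control pallium spanned from 37.1 ± 1.20 scaled TPM for Trp53bp1 to 2.22 ± 0.272 for Brca2 (SD, n = 4). Chek1 came second at 23.4 ± 1.82, followed by Parp1 at 16.3 ± 1.29, Atm at 11.6 ± 1.08, Brca1 at 9.57 ± 0.847 and Atr at 5.74 ± 0.903 (SD, n = 4 each). Usp28 at 2.58 ± 0.294 and Chek2 at 2.58 ± 0.196 came last together with Brca2. Among tested genes these means ran from the 25.1th percentile (Brca2) to the 91.4th (Trp53bp1). Neighbours in this order whose control embryos overlapped were Atm with Brca1, Usp28 with Chek2 and Chek2 with Brca2. The ranges of all other neighbours were separate. The dKO group had the same order. In cKO the ranges of Chek1 and Parp1 also overlapped, and Chek2 stood above Usp28 with overlapping ranges.

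With loss of U11 alone, 1 of the 9 genes was called, which is near the share of all tested genes called. In cKO against control, limma called Chek1 lower and none of the 9 higher. Of all tested genes, 7.22% were called in either direction and 3.26% were called lower. The median change of the 9 was -0.14 on the log2 scale, against 0.00 over all tested genes, and 8 of the 9 had a change below 0. The cKO embryos lay below all control embryos for Chek1 and Brca1, where 17.5% of tested genes did not overlap and 8.15% lay below. As deposited, 1 of the 9 was called in this comparison (Trp53bp1, higher), against 35.4% of tested genes called and 34.3% called higher. These are levels in whole tissue, in which fewer cells of a type cannot be told apart from less RNA per cell.

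Chek1, the kinase through which Atr slows entry into mitosis, stood at 23.2, 21.3, 25.7 and 23.3 scaled TPM in control embryos 1 to 4. In cKO embryos 1 to 4 it stood at 15.4, 15.2, 17.3 and 18.2, and in dKO embryos 1 to 4 at 23.2, 15.6, 16.4 and 20.2. Every cKO embryo lay below every control embryo, while the dKO embryos spread over both ranges. Chek1 fell in cKO by 0.48 on the log2(scaled TPM + 1) scale (SE 0.117, 95% interval -0.73 to -0.23, limma adjusted p = 0.0293), to 70.6% of the control mean. It was not called in dKO against control, with a change of -0.31 (95% interval -0.56 to -0.06, limma adjusted p = 0.122), nor in dKO against cKO (0.17, 95% interval -0.09 to 0.42, limma adjusted p = 0.406). As deposited, the cKO change was -0.19 (limma adjusted p = 0.272) and the groups overlapped, and without a filter on low values the adjusted p was 0.0621. Leaving out control embryo 1, 3 or 4 or cKO embryo 1, 2 or 3 raised the limma adjusted p to between 0.0526 and 0.0909, and leaving out dKO embryo 1 brought the dKO change to -0.41 (adjusted p = 0.0306). Sample weights also called Chek1 lower in dKO against control (-0.35, adjusted p = 0.0484).

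Markers of dividing cells also had lower levels in cKO than in control after scaling. In cKO against control all 14 proliferation markers had a change below 0. Of them 5 were called lower, where 3.26% of all tested genes were called lower. The median change of the 14 was -0.34. Their summed level was 733 to 859 scaled TPM in control, 543 to 641 in cKO and 545 to 712 in dKO, and none was at 0 in any library. Their part in the result for Chek1 was not tested. As deposited, the median of the same markers was -0.04, below the common shift of 0.25.

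Brca1, which directs breaks into homologous recombination, stood at 8.91, 9.03, 10.8 and 9.58 scaled TPM in control embryos 1 to 4 and at 7.42, 8.15, 7.86 and 8.58 in cKO. The dKO embryos stood at 9.32, 6.59, 8.34 and 9.57. The cKO range lay just below the control range, and the dKO range covered both. The change in cKO was -0.23 (95% interval -0.45 to -0.01), which did not pass (limma adjusted p = 0.201), and it passed only with sample weights (adjusted p = 0.0475).

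The other 7 genes were not called in cKO, and the intervals given here hold for this scaling only. Atm stood at 9.73 ± 0.981 scaled TPM in cKO against 11.6 ± 1.08 in control (SD, n = 4 each), a change of -0.23 (95% interval -0.43 to -0.03, limma adjusted p = 0.164). The change was -0.14 for Atr (interval -0.35 to 0.07), -0.14 for Parp1 (-0.31 to 0.04) and -0.07 for Usp28 (-0.32 to 0.18). For Chek2 it was 0.03 (interval -0.18 to 0.25), for Brca2 -0.03 (-0.25 to 0.19) and for Trp53bp1 -0.02 (-0.16 to 0.11). The limma adjusted p-values of these 7 ran from 0.164 to 0.906. As deposited, all but Chek1 of the 9 had a change above 0 in cKO, which was below the shift of 0.25 common to all genes in 6 of these 8. Trp53bp1 (0.28, limma adjusted p = 0.0458) and Chek2 (0.26, adjusted p = 0.0607) lay just above it. The direction of these small changes therefore depended on the scaling.

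**Figure D2:**
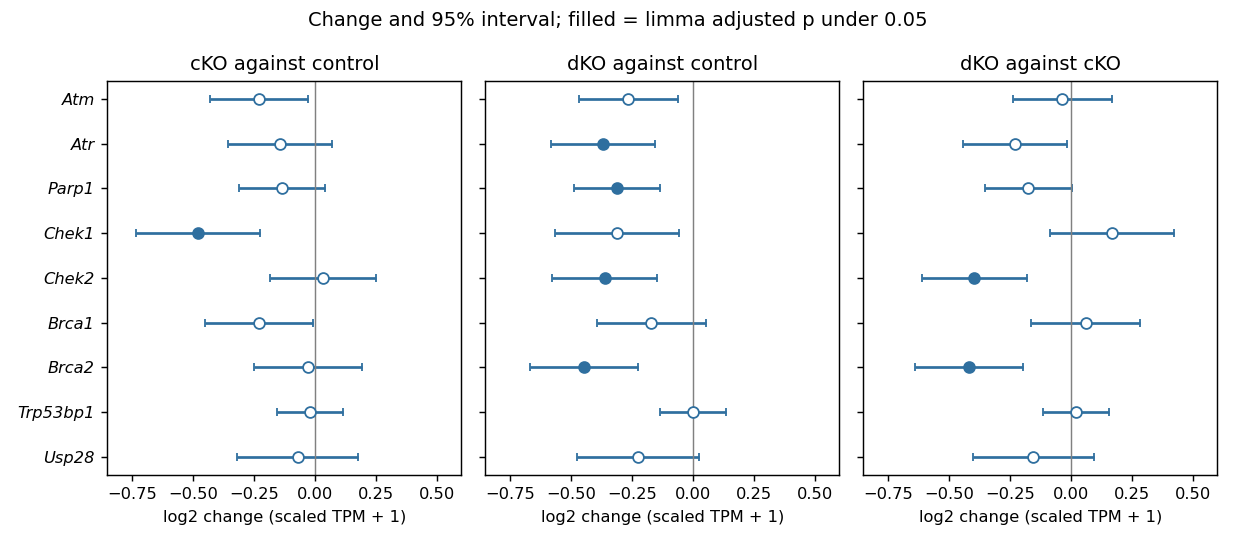
Log2 change in scaled TPM + 1 (x axis) of each gene in the 3 comparisons, with 95% intervals from limma; filled points passed an adjusted p of 0.05. Chek1 is filled in cKO against control; Brca2, Chek2, Atr and Parp1 are filled in dKO against control; and Brca2 and Chek2 are filled in dKO against cKO.

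Loss of U11 and p53 together was followed by lower levels of 4 of the 9 genes. In dKO against control, Brca2, Atr, Chek2 and Parp1 were called lower and none higher, where 9.0% of all tested genes were called and 5.05% were called lower. The median change of the 9 was -0.31, against 0.00 over all tested genes, and every member except Trp53bp1 had a change below 0. The dKO embryos lay below all controls for Atr, Brca2 and Parp1, where 14.1% of tested genes did not overlap and 7.28% lay below. As deposited, 2 of the 9 were called, Atr and Brca2, both lower, against 5.19% of tested genes called and 3.40% called lower.

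In dKO against cKO, which asks what the added loss of p53 changed, Brca2 and Chek2 were called lower and none of the 9 higher. The background was 6.94% of tested genes called and 4.22% called lower. The median change of the 9 was -0.15, against 0.01 over all tested genes. The dKO embryos lay below all cKO embryos for Brca2, Chek2 and Parp1, where 15.5% of tested genes did not overlap and 7.57% lay below. As deposited, 7 of the 9 were called, all lower, but so were 38.8% of tested genes (39.4% in either direction). This comparison shares its dKO embryos with the one before, so the calls for Brca2 and Chek2 in both are not separate evidence.

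Brca2, which is needed to repair breaks by homologous recombination, had the lowest mean of the 9 genes in dKO, as it did in control and cKO. It stood at 1.93, 2.48, 2.05 and 2.43 scaled TPM in control embryos 1 to 4 and at 2.02, 1.92, 2.54 and 2.15 in cKO. In dKO embryos 1 to 4 it stood at 1.57, 0.975, 1.496 and 1.44, below all 8 other embryos. Brca2 fell by 0.45 in dKO against control (SE 0.102, 95% interval -0.67 to -0.23, limma adjusted p = 0.0197) and by 0.42 against cKO (SE 0.102, interval -0.64 to -0.20, limma adjusted p = 0.0323), to 61.7% and 63.6% of those means. At levels near 2 TPM the pseudocount of 1 shrinks these changes. As deposited the groups were also separate, with changes of -0.45 (limma adjusted p = 0.0204) and -0.63 (adjusted p = 0.000945). The call against control was lost without control embryo 2 or 4 (adjusted p = 0.0567 and 0.0603) and in a fit of the 2 groups alone (0.0530). The call against cKO was lost without any 1 of the 4 cKO embryos or dKO embryo 2 or 4 (adjusted p between 0.0530 and 0.0915), and, the replicate block aside, under median-shift centring, quantile normalization, no filter and the fit of 2 groups, where it ran from 0.0568 to 0.0688.

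Chek2, the kinase that carries the Atm signal to p53 and the cell cycle, showed a similar order of groups. Its control embryos stood at 2.30, 2.65, 2.75 and 2.60 scaled TPM, its cKO embryos at 2.46, 2.62, 2.92 and 2.63, and its dKO embryos at 1.61, 1.37, 1.88 and 2.35. The dKO embryos lay below all cKO embryos, and dKO embryo 4 reached into the control range. Chek2 fell by 0.36 in dKO against control (SE 0.0989, limma adjusted p = 0.0410) and by 0.40 against cKO (SE 0.0989, adjusted p = 0.0353), to 69.97% and 67.8% of those means. As deposited the change against control was -0.37 (adjusted p = 0.0550) and against cKO -0.63 (0.00111). The call against control was lost without control embryo 2, 3 or 4 or dKO embryo 1, 2 or 3 (adjusted p between 0.0719 and 0.104). That against cKO was lost without any 1 of the cKO embryos or dKO embryo 1, 2 or 3 (between 0.0547 and 0.0947). Of the settings other than leaving out embryos and the replicate block, equal protein-coding sums, no filter and the 2-group fit also ended the first call (0.0636 to 0.109), and median-shift centring, quantile normalization, no filter and the 2-group fit the second (0.0536 to 0.0808).

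The 250 bases before the RefSeq start (build GRCm38.p6) of these 2 genes, the only members called lower in dKO against both other groups, are shown because they were also the only 2 of the 9 that held an E2F motif, taken as TTTGGCG, with TTTCGCG and with TTTCCCG as its other forms, on either strand. E2F factors drive many genes of S phase. Capitals mark the E2F match, CGGGAAA as read on the printed strand, and, in Chek2, matches to the CCAAT box (ATTGG on the printed strand), to which the factor NF-Y binds. The Brca2 sequence is chr5:150522371-150522620 and the Chek2 sequence chr5:110839733-110839982, both on the plus strand and directly before the RefSeq start.
Brca2: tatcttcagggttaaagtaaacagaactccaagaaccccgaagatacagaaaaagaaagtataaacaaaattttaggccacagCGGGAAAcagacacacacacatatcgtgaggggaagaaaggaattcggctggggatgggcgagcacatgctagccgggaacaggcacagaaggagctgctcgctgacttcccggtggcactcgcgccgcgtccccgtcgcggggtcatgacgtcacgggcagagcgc
Chek2: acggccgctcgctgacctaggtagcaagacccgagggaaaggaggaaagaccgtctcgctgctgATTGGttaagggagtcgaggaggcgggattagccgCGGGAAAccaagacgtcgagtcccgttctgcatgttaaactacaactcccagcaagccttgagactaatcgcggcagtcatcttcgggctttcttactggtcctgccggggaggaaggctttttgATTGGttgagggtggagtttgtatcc
The match lies 167 bases before the start in Brca2 and 151 bases in Chek2. Such a match was found in 1500 of 32851 RefSeq promoter windows of this length (4.57%). A CCAAT box was present in 4 of the 9 members (Atm, Chek2, Brca1 and Usp28) and in 33.8% of all windows. The cell cycle homology region, taken as TTTGAA or TTCGAA, was present in Atr alone and in 17.1% of all windows, and the p53 half-site consensus was matched in none of the 9 windows and in 7.13% of all. Atr, Parp1 and Chek1, each called lower in 1 comparison, held no E2F match. A match is a stretch of letters, no binding was measured here, and a link between matches and calls was not tested.

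Atr, the kinase of the replication stress branch, stood at 4.97, 7.05, 5.43 and 5.53 scaled TPM in control embryos 1 to 4, at 4.70, 5.17, 5.67 and 4.797 in cKO, and at 4.18, 3.67, 4.21 and 4.75 in dKO. Every dKO embryo lay below every control embryo, and dKO embryo 4 reached into the cKO range. Atr fell in dKO by 0.37 against control (SE 0.0976, 95% interval -0.58 to -0.16, limma adjusted p = 0.0363), to 73.2% of the control mean. Against cKO the change was -0.23 (limma adjusted p = 0.178), and -0.50 as deposited (adjusted p = 0.00179). The call against control was lost without control embryo 2, 3 or 4 or dKO embryo 1, 2 or 3 (adjusted p between 0.0560 and 0.0788), and, the replicate block aside, with 5 other settings (0.0531 to 0.0966), among them equal protein-coding sums and the fit of these 2 groups alone.

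Parp1 stood at 17.4, 14.5, 16.2 and 17.0 scaled TPM in control embryos 1 to 4, at 14.0, 14.8, 14.5 and 15.5 in cKO, and at 13.6, 11.1, 13.3 and 13.9 in dKO. The dKO embryos were the 4 lowest of the 12, and the cKO embryos lay between them and most controls. Parp1 fell in dKO by 0.31 against control (SE 0.0812, limma adjusted p = 0.0355), to 79.6% of the control mean, and stood at 88.1% of the cKO mean (change -0.17, adjusted p = 0.215). As deposited the call against control was absent (-0.33, adjusted p = 0.117) and that against cKO present (-0.49, adjusted p = 0.00677). The call against control was also lost without control embryo 1, 3 or 4 or dKO embryo 2 or 3 (adjusted p between 0.0656 and 0.0952), and, the replicate block aside, with equal protein-coding sums, no filter or the 2-group fit (0.0562 to 0.102). Equal protein-coding sums also called Parp1 lower against cKO (-0.28, adjusted p = 0.0487).

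Markers of several cell types differed between the groups as well. For comparison, 7.22% of all tested genes were called in cKO against control, 9.0% in dKO against control and 6.94% in dKO against cKO. Of 10 neuron markers, Bhlhe22, Neurod2 and Neurod6 were called lower in dKO against control, and Bhlhe22, Neurod2 and Tubb3 against cKO, with summed levels of 239 to 292 scaled TPM in control, 249 to 318 in cKO and 179 to 260 in dKO. Of the 14 proliferation markers 4 were called lower than in control (median -0.31), and none was called between dKO and cKO (median 0.11, or -0.22 as deposited). The microglia markers summed to 11.3 to 13.1 in control, 33.9 to 47.4 in cKO and 13.46 to 18.2 in dKO. Their 7 tested genes included 6 called higher in cKO and 5 called lower in dKO against cKO, and none of the 9 listed was at 0 in any library. Vessel markers summed to 11.8 to 13.7 in control, 19.0 to 20.97 in cKO and 15.2 to 23.1 in dKO, and of their 6 tested genes 3 were called higher in cKO and 1 in dKO against control. Of 6 intermediate progenitor markers, Eomes and Neurog2 were called lower in cKO and Eomes in dKO against control. Of 8 radial glia markers, Hes5 and Sox2 were called lower in cKO against control, and none was called in dKO against control or cKO. Among 5 tested choroid plexus and hem markers, Rspo3 and Wnt3a were called higher in cKO against control, and none in dKO against control or cKO. The part of these cells in the results for Brca2, Chek2, Atr and Parp1 was not tested.

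Trp53bp1 and Usp28, the pair through which mitotic surveillance reaches p53, were not called in any comparison of the scaled values. Trp53bp1 stood at 38.5, 36.7, 37.3 and 35.6 scaled TPM in control embryos 1 to 4, at 36.2, 36.6, 35.9 and 37.3 in cKO and at 34.8, 38.6, 39.5 and 35.5 in dKO. The 3 ranges overlapped, and the cKO and dKO means were 98.5% and 100.2% of the control mean. Its changes were -0.02 in cKO against control (95% interval -0.16 to 0.11), 0.00 in dKO against control (-0.13 to 0.14) and 0.02 in dKO against cKO (-0.11 to 0.16), the narrowest intervals of the 9 genes. As deposited, Trp53bp1 followed the common shift, with 0.28 in cKO against control (limma adjusted p = 0.0458) and -0.30 in dKO against cKO (adjusted p = 0.0315).

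Usp28 stood at 2.81, 2.78, 2.17 and 2.57 scaled TPM in control embryos, at 2.24, 2.12, 2.23 and 3.10 in cKO and at 1.68, 2.67, 2.05 and 1.91 in dKO. The groups overlapped, and cKO embryo 4 stood far above the other 3. The change was -0.22 in dKO against control (95% interval -0.47 to 0.02, limma adjusted p = 0.251) and -0.15 in dKO against cKO (-0.40 to 0.10, adjusted p = 0.441). As deposited, it was called lower in dKO against cKO (-0.39, adjusted p = 0.0469), where the common shift was -0.26. The pair signals to p53. Of 12 tested genes on a list of Trp53 and its targets, 10 were called higher in cKO against control. All 12 were called lower in dKO against cKO. Of all tested genes, 7.22% and 6.94% were called in either direction in these comparisons. That list was drawn up with these results known, and Trp53 itself is deleted in dKO. Ccng1, a cyclin that p53 induces, averaged 8.87 ± 0.948 scaled TPM (control), 41.0 ± 2.32 (cKO) and 7.56 ± 0.861 (dKO), with the SD of 4 embryos (limma log2 change 2.09 in cKO against control, adjusted p = 1.08e-07).

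Atm and Brca1 completed the set and were not called in dKO after scaling. Atm stood at 10.3, 11.7, 12.9 and 11.4 scaled TPM in control embryos, at 8.38, 10.6, 10.2 and 9.68 in cKO and at 8.93, 8.56, 10.8 and 9.60 in dKO. The mutant ranges were alike and their upper ends reached into the control range. Its change in dKO was -0.26 against control (95% interval -0.47 to -0.06, limma adjusted p = 0.0994) and -0.04 against cKO (-0.24 to 0.17). As deposited, Atm was called lower in dKO against cKO (-0.34, adjusted p = 0.0310). Brca1 differed by -0.17 from control (-0.39 to 0.05, adjusted p = 0.335) and by 0.06 from cKO (-0.16 to 0.28).

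**Figure D3:**
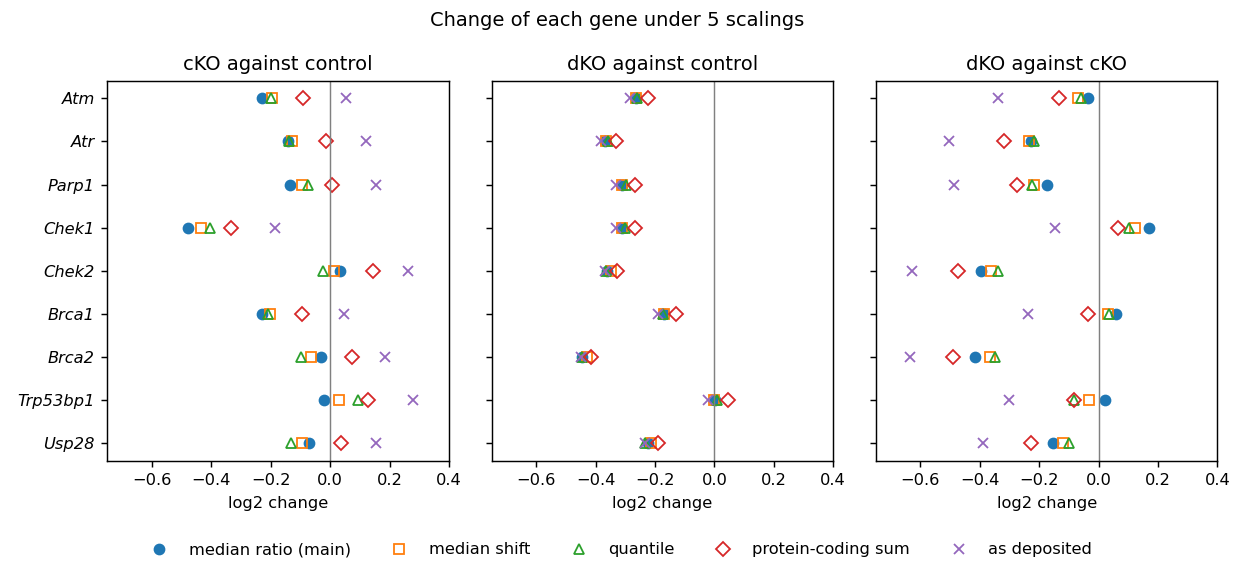
Log2 change (x axis) of each gene in the 3 comparisons under 5 scalings of the libraries. In dKO against control the 5 values of a gene lie close together (-0.45 to -0.42 for Brca2), whereas in both comparisons with cKO the deposited values stand apart from the rest (0.18 against -0.03 for Brca2 in cKO against control).

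Ratios of 2 members within an embryo do not depend on how the library is scaled. They were formed for 4 pairs of related genes, chosen after the values were seen, and tested in 12 exact two-sided permutation tests. The ratio of Chek1 to Chek2 was 10.1, 8.03, 9.35 and 8.97 in control embryos 1 to 4, 6.25, 5.79, 5.93 and 6.89 in cKO, and 14.4, 11.4, 8.75 and 8.60 in dKO. All cKO embryos lay below all others, with a log2 difference of -0.55 from control and of 0.77 for dKO against cKO (exact permutation p = 0.0286 for both, the smallest possible, and 0.0857 adjusted over 12 tests). Between dKO and control the ratio overlapped (log2 difference 0.21, exact permutation p = 0.314).

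The ratio of Brca1 to Brca2 separated the dKO embryos instead. It was 4.61, 3.64, 5.24 and 3.94 in control embryos 1 to 4, 3.68, 4.23, 3.09 and 3.99 in cKO, and 5.92, 6.76, 5.57 and 6.62 in dKO. Every dKO embryo lay above all 8 others, with log2 differences of 0.52 from control and 0.74 from cKO (exact permutation p = 0.0286 for both, adjusted 0.0857). In cKO against control it overlapped (-0.21, exact permutation p = 0.286).

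The other pairs overlapped in all 3 comparisons. Atm to Atr was 2.04 ± 0.295 (control), 1.92 ± 0.140 (cKO) and 2.26 ± 0.237 (dKO, all SD of 4 embryos), and its smallest exact permutation p was 0.0571, in dKO against cKO. Trp53bp1 to Usp28 was 14.5 ± 1.82, 15.4 ± 2.29 and 18.3 ± 2.68 in the same order, with a smallest exact permutation p of 0.0571, in dKO against control. None of the 12 tests passed 0.05 after adjustment, and 4 had the smallest possible p. With that floor, 4 tests at the smallest possible p cannot pass after adjustment over 12 tests. The adjusted values therefore decide nothing about these ratios.

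**Figure D4:**
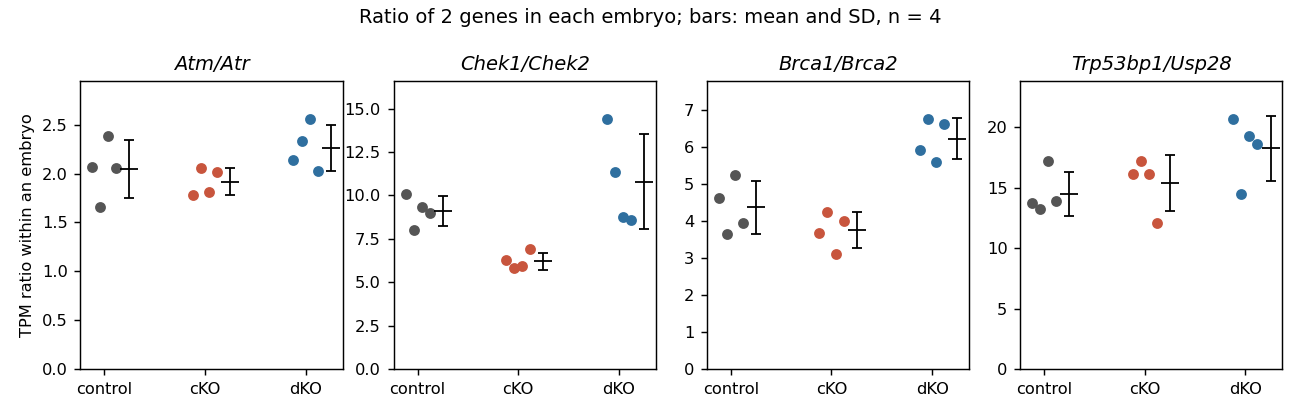
TPM ratio of 2 genes within each embryo (y axis) by genotype, for 4 pairs, with the mean and SD of 4 embryos as bars. The Chek1/Chek2 ratio is lowest in the cKO embryos (5.79 to 6.89) and the Brca1/Brca2 ratio is highest in the dKO embryos (5.57 to 6.76).

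Across the 12 embryos the 9 genes fell into partly separate patterns, given here as a description since the points share genotypes and libraries. Of the 36 pairs of members, 28 had a Pearson r above 0, with a median of 0.39. The closest pairs were Chek2 with Brca2 (r = 0.87), Chek1 with Brca1 (r = 0.86) and Atr with Brca2 (r = 0.86). Trp53bp1 had the lowest, with r = -0.35 against Brca2. The tested genes most like the members were Psip1 and Gm8242 for Chek1, Ccpg1 and Mrpl48-ps for Chek2, Zgrf1 and AC160637.1 for Atr, and Ctcf for Parp1, with r from 0.93 to 0.96. For Brca1 they were Gm6829 and Rnf2 and for Brca2 Gm37558 and Gm37463 (r from 0.93 to 0.95). For Atm they were Bbx and Oxct1, for Usp28 Elk1 and 2610318N02Rik, and for Trp53bp1 Fads1 and Rhog (r from 0.84 to 0.90).

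By position, 4 of the 9 genes lie on chromosome 9 (Atm, Atr, Chek1 and Usp28) and the other 5 are on chromosomes 1, 2, 5 and 11, in GENCODE M21 on GRCm38, the mm10 build. Brca2 spans chr5:150522630-150570329 on the plus strand, with 27 exons in its longest transcript, and Chek2 spans chr5:110839979-110874145 on the plus strand, with 15. Chek1 lies at chr9:36708482-36727065 on the minus strand, with 12 exons in its longest transcript, Atr at chr9:95857597-95951781 on the plus strand, with 47, and Parp1 at chr1:180568924-180601254 on the plus strand, with 23. Genes on the opposite strand overlap Atr (1700065D16Rik and Gm16794, at most 0.837 TPM), Brca2 (Gm42529, at most 0.145 TPM, and the snRNA genes Gm25284 and Gm23641, listed at 0) and Trp53bp1 (Tubgcp4, 3.55 to 7.53 TPM). The kit marks strand, but how strand was used in counting is not given in the sources used here, so reads from such partners may be counted in these 3 genes. On the same strand, the snRNA gene Gm24004 overlaps Atr (at most 0.745 TPM) and the sense-intronic gene Gm42531 overlaps Brca2 (at most 0.136 TPM). Mir6904, listed at 0, overlaps Parp1 on the same strand. Strand does not separate the reads of such genes.

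Other genes of these pathways were counted in the same way. Of 89 other damage and checkpoint genes on 6 lists, 87 were tested. In cKO against control none was called higher and 8 lower (9.2% called, median -0.17), in dKO against control 2 higher and 9 lower (12.6%, median -0.14), and in dKO against cKO 2 higher and none lower (2.3%, median 0.02). The matching medians of the 9 members were -0.14, -0.31 and -0.15. As deposited the counts were very different: 10 higher and 1 lower (Xrcc5) in cKO against control, none higher and 5 lower in dKO against control, and none higher and 30 lower in dKO against cKO, with medians of 0.09, -0.15 and -0.24. Of all tested genes, 7.22%, 9.0% and 6.94% were called in the same order after scaling, and 35.4%, 5.19% and 39.4% as deposited. These shares are the background for each list below.

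Among 21 partners in damage signalling, 3 were called lower in cKO against control: H2afx, the histone variant that is phosphorylated at breaks, Etaa1, an activator of Atr, and Clspn, which couples Atr to Chek1. Etaa1 averaged 8.24 ± 0.376 scaled TPM (control), 5.01 ± 0.535 (cKO) and 7.52 ± 1.56 (dKO, all SD of 4 embryos), so that it fell by 0.62 in cKO (limma adjusted p = 0.00671) and rose by 0.49 in dKO against cKO (adjusted p = 0.0291). Clspn stood at 3.99 ± 0.308, 2.87 ± 0.211 and 2.65 ± 0.411 in the same order and fell in both mutants (limma adjusted p = 0.0250 and 0.00791). H2afx fell by 0.95 in cKO and 0.82 in dKO against control (adjusted p = 0.0309 and 0.0483), from a control level that varied widely, 28.8 ± 12.98 scaled TPM (SD, n = 4). Rnf168, a ubiquitin ligase that recruits Trp53bp1 to breaks, fell in dKO by 0.27 (adjusted p = 0.0331).

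Of 24 tested recombination genes, Abraxas1, Rad54l and Dna2 were called lower in cKO against control and Fanca, Dna2 and Xrcc2 in dKO against control. Dna2, a nuclease that resects break ends, averaged 2.26 ± 0.102 scaled TPM (control), 1.61 ± 0.0925 (cKO) and 1.27 ± 0.224 (dKO, all SD of 4 embryos), and fell by 0.32 and 0.53 (limma adjusted p = 0.0321 and 0.00228). Fanca, a Fanconi anaemia gene, fell by 0.55 in dKO (adjusted p = 0.00660). None of the 24 was called between dKO and cKO, where their changes ran from -1.62 to 0.26 with a median of 0.00. As deposited, 7 of them were called lower in this comparison, where 38.8% of all tested genes were. After scaling Brca2 fell by 0.42, and whether Brca2 differed from the 24 was not tested.

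Of 13 end joining genes, Xrcc5, the large Ku subunit that binds broken ends, changed most. It averaged 5.89 ± 0.333 scaled TPM (control), 2.61 ± 0.282 (cKO) and 2.47 ± 0.412 (dKO, all SD of 4 embryos), with no overlap between either mutant and control. Xrcc5 fell by 0.94 in cKO and by 0.998 in dKO (limma adjusted p = 6.71e-05 and 8.51e-05), and also as deposited (-0.70 and -1.001, adjusted p = 0.000511 and 0.000114). Lig4, the ligase of the same pathway, rose in dKO by 0.26 against control (adjusted p = 0.0279).

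Of the 10 tested genes of single-strand break repair and poly(ADP-ribose) turnover, none was called in any comparison. As deposited, 4 were called higher in cKO against control and 6 lower in dKO against cKO. Of all tested genes, 34.3% and 38.8% were called in these directions. Of the 11 checkpoint targets (Cdk1 among them is also a proliferation marker), Cdc25c, a phosphatase that Chek1 inhibits, was the only one called, lower in cKO by 0.36 (limma adjusted p = 0.0291) and in dKO by 0.39 (adjusted p = 0.0199) against control. Of 8 genes of centriole duplication and mitotic surveillance, none was called in cKO against control. In dKO against control Cep63 fell by 0.52 (adjusted p = 0.0205) and Sass6 rose by 0.24 (adjusted p = 0.0338), and Sass6 also rose against cKO by 0.25 (adjusted p = 0.0325), a direction that turned as deposited (-0.01).

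**Figure D5:**
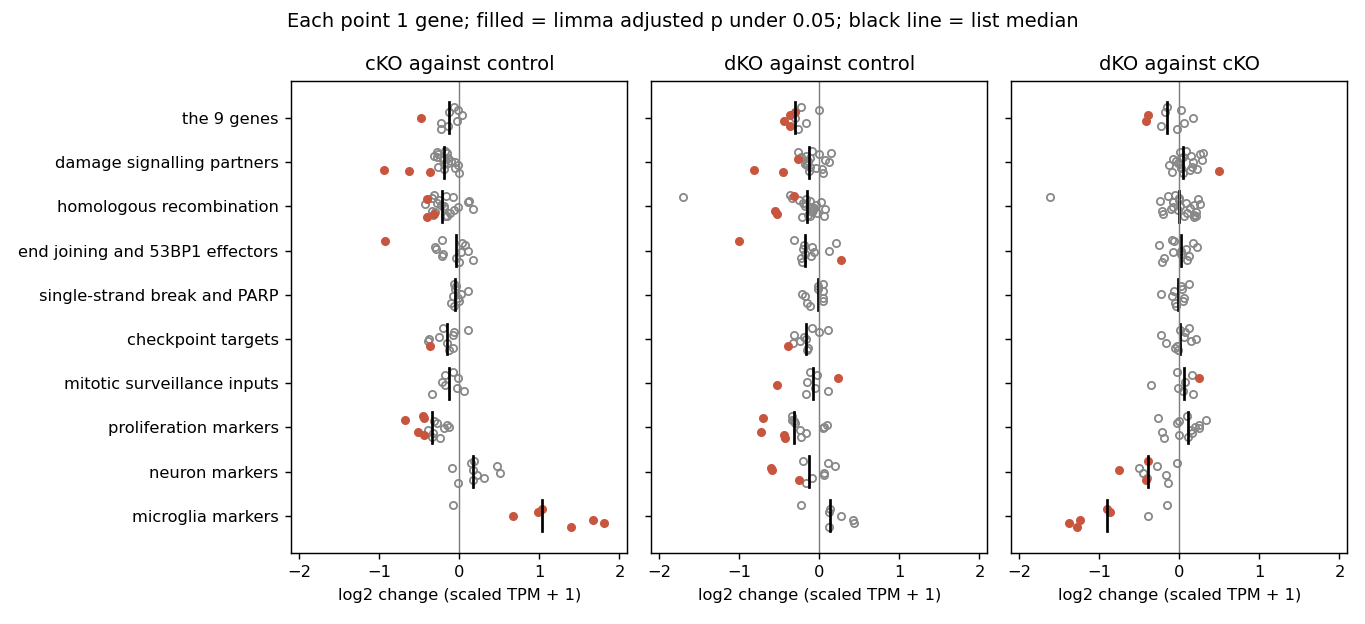
Log2 change in scaled TPM + 1 (x axis) of every tested gene on 10 lists in the 3 comparisons; filled points passed an adjusted p of 0.05 in limma and black lines are list medians. The 9 genes have medians of -0.14, -0.31 and -0.15, and the microglia markers have medians of 1.03, 0.13 and -0.91.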

How the data were processed

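Stranded total RNA libraries of 12 pallia, 4 per genotype, were analysed from the deposited tables, 1 per embryo. The authors' values are TPM per gene symbol: the deposited numbers are fractional and sum to 1000000 in each table. HISAT2 and mm10 are named in the submitters' processing notes; the quantification tool, annotation and treatment of shared reads are not given in the sources used here. TPM keeps no depth, so no counting interval or floor is given. Protein-coding genes hold 14.4% to 19.99% of the TPM of a library, and the TPM of most genes shifted together between genotypes, so each library was divided by its median ratio to the geometric mean library, over tested genes above 0 in every library.

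Values were analysed as log2(scaled TPM + 1) with limma 3.58.1 in R 4.3.3 (lmFit, and eBayes with trend) for the 11764 genes whose mean over the 12 embryos reached 1 TPM, all 3 groups in 1 fit, with Benjamini-Hochberg adjustment over all genes; an adjusted p under 0.05 was called. Nothing says whether embryos share litters, so spread between litters is not told apart. The limma p-values rest on the spread between embryos within genotypes, pooled over the 3 groups and moderated across genes. On simulated data for cKO against control, 184 of 200 genes changed by 1 on the log2 scale were recovered among 11764 genes, with 8 false calls. The called changes of the members were smaller, from -0.48 to -0.31, and recovery at such sizes was not measured. Replicate numbers repeat across genotypes without a stated pairing and were not used as a block. The 9 members and all lists were chosen with earlier results of these data known. Named genes are the members, Rnu11 and Trp53, up to 3 called genes per direction, list and comparison with the largest change, and the 2 genes most correlated with each member (1 of these is not reported here); Ccng1 and Etaa1 are among them. Gene types and positions are from GENCODE M21 (54106 symbols matched), and promoter sequences from RefSeq on GRCm38.p6 (9 of 9 members matched). Alternatives were 4 other scalings, another pseudocount, 2 filters, sample weights, 2-group fits, the replicate number as a block and leaving out each embryo. Scripts used Python 3.11.15, scipy 1.17.1 and matplotlib 3.10.9.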

Additional observations from a re-analysis of the deposited data

Results flagged for a closer look

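A single embryo far from the other 3 of its genotype was looked for with Dixon's 95% limit for 4 values, in the 9 genes, Rnu11 and Trp53. Of 33 genotype groups, 1 lay beyond the limit, where chance gives about 1 in 20 (1.65 of 33). This was Usp28 in cKO: embryo 4 stood at 3.10 scaled TPM and the other 3 between 2.12 and 2.24, so that the gap took up 0.876 of the range. Without this embryo Usp28 was still not called in cKO against control (log2 change -0.16, limma adjusted p = 0.435) or in dKO against cKO (-0.06, adjusted p = 0.764).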

How the results depend on the processing

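Calls of single members were not stable. The 7 member calls held in 18 of 56 fits that left out an embryo and in 37 of 66 fits with another setting. The cause of the differences below was not tested. With the values as deposited, 4163 genes were called in cKO against control (4035 higher, 128 lower, where scaling gave 466 and 383), 610 in dKO against control (210 higher, 400 lower, where scaling gave 465 and 594) and 4636 in dKO against cKO (72 higher, 4564 lower, where scaling gave 320 and 496). Members called were then 2 in dKO against control and 7 in dKO against cKO. Directions that turned as deposited were, in cKO against control, Atm (0.054), Atr (0.12), Brca1 (0.048), Brca2 (0.18), Parp1 (0.15), Trp53bp1 (0.28), Usp28 (0.15) and the difference of Trp53 (0.426 TPM). Trp53bp1 turned in dKO against control (-0.022), and Brca1 (-0.24), Chek1 (-0.15) and Trp53bp1 (-0.30) in dKO against cKO. The Rnu11 difference between mutants fell to 19.3 TPM, no longer past the threshold.

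Median-shift centring turned Trp53bp1 (0.031, -0.0020 and -0.033 in the 3 comparisons) and called 0 members in dKO against cKO. Equal protein-coding sums called 1539 genes in cKO against control (1334 higher, 205 lower), 1 member in dKO against control and also Parp1 in dKO against cKO (-0.28); they turned Brca2 (0.074), Parp1 (0.0076), Trp53bp1 (0.13) and Usp28 (0.037) in cKO against control and Brca1 (-0.037) and Trp53bp1 (-0.083) in dKO against cKO. Quantile normalization turned Chek2 (-0.025) and Trp53bp1 (0.093) in cKO against control and Trp53bp1 (-0.083) in dKO against cKO, where it called 0 members. With no filter, members called were 0, 1 and 0 in the 3 comparisons. A minimum mean of 5 TPM, which 6 of the 9 pass, called 398, 543 and 346 genes, and 1 member in dKO against control and 0 in dKO against cKO. Sample weights called 2020 genes and 2 members in cKO against control, also called Chek1 in dKO against control (-0.35), and turned Atm in dKO against cKO (0.0079). Fits of the 2 groups alone called 517 genes in dKO against control and 441 in dKO against cKO, with 0 members in both.

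The replicate number as a block called 550, 646 and 458 genes, and 1 member (Brca2) in dKO against control and 0 in dKO against cKO. The 5 calls lost with it, Atr, Chek2 and Parp1 against control and Brca2 and Chek2 against cKO, had limma adjusted p from 0.0507 to 0.0765. Same-numbered embryos did not deviate together (r from -0.10 to 0.08), so the numbers are no evidence of pairing. Leaving out each embryo in turn gave 496 to 752, 604 to 1190 and 238 to 780 genes, and 0 to 1, 0 to 4 and 0 to 1 members. Changes that turned were Trp53bp1 in dKO against control (-0.027 to 0.029) and dKO against cKO (-0.0063 to 0.051), Brca2 (-0.085 to 0.0086) and Chek2 (-0.0064 to 0.061) in cKO against control, Atm in dKO against cKO (-0.098 to 0.0086), and the Trp53 difference in cKO against control (-0.790 to 0.428 TPM).

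With 4 embryos a group, calls near the threshold depend on single embryos, and the 95% intervals of uncalled members reach down to -0.16 for Trp53bp1 in cKO against control and to -0.56 for Chek1 in dKO against control. TPM gives no counting error, and Chek2, Brca2 and Usp28 lie near 2 TPM, where the pseudocount shrinks changes.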
